A study of Mus musculus with 9 samples.

Results

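Of the genes that write, remove and read DNA methylation, 3 of 9 differed between Ezh2-deficient and wild-type (WT) mouse regulatory T cells (Tregs), Uhrf1 and Dnmt3b being lower and Tet1 higher without Ezh2, where 21.9% of all tested genes differed. The 9 genes were chosen by name, as the rows of the count table whose Ensembl mouse gene is Dnmt1, Dnmt3a, Dnmt3b, Tet1, Tet2, Tet3, Uhrf1, Mbd1 or Mbd2. They are 9 of 43432 genes in the table, of which 22839 had a count and 13685 passed a filter on low counts and were tested, these 9 among them. Tregs, a class of CD4 T cells defined by the transcription factor Foxp3, hold immune responses in check. RNA was sequenced from CD62L-high Tregs of C57BL/6 mice that had been sorted, activated with beads carrying anti-CD3 and anti-CD28, and kept in 2000 U/ml interleukin-2 to day 4. All 9 libraries came from animals with the Foxp3-Cre-GFP and R26-LSL-RFP alleles, so Cre is driven by Foxp3. When and in which cells Ezh2 was deleted was not tested. The 4 Ezh2-deficient libraries were Ezh2-fl/fl, with 2 floxed copies. The library labelled WT replicate 1 was Ezh2-fl/+, with 1 floxed copy, and replicates 2 to 5 were Ezh2-+/+. Age and sex of the animals, and whether a culture came from 1 animal or a pool, were not stated in the labels. Ezh2 is the enzyme of Polycomb repressive complex 2, which silences genes by methylating histone H3.

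DNA methylation sits on cytosines that are followed by guanine (CG pairs). DNMT3A and DNMT3B place it on unmethylated DNA, DNMT1 copies it onto the new strand at each replication, and UHRF1 recognises hemimethylated DNA behind the replication fork and brings DNMT1 to it. The TET enzymes oxidise methylcytosine, the first step of its removal, and MBD1 and MBD2 bind methylated CG pairs and recruit repressors. In Tregs, TET enzymes and the loss of methylation at an intronic enhancer of Foxp3 are known to keep Foxp3 expression stable through division, and DNMT1 and UHRF1 are known to be needed for Treg numbers and function.

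The promoters of the 3 genes that differed are shown because CG pairs are the substrate of these enzymes. The sequences are from RefSeq (GRCm38.p6), run 5′ to 3′ on the gene's strand, end at the base before an annotated start, and have CG pairs in capitals. The window of Tet1 is cut to the 88 bases next to the start, which lie outside annotated exons, and that of Uhrf1 belongs to 1 of its 2 annotated starts. The Tet1 window lies inside the gene as annotated by GENCODE, which begins upstream at 62908996 on the minus strand. That upstream start has no window here, and the counts do not separate transcripts by start. RefSeq gave 12 such windows of 250 bases for 7 of the 9 genes. Mbd1 and Mbd2 are named only.
Dnmt3b, chr2:153649199-153649448, plus strand: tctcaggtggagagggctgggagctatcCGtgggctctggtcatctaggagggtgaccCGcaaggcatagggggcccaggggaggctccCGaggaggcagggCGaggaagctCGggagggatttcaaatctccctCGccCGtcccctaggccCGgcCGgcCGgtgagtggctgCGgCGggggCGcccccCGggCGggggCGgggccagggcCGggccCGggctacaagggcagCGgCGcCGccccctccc
Uhrf1, chr17:56304063-56304312, plus strand: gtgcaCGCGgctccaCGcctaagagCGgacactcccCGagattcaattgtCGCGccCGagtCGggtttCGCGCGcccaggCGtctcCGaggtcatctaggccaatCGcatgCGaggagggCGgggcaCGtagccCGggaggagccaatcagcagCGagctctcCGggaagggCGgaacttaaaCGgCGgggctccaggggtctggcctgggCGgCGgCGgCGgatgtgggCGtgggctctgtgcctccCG
Tet1, chr10:62887325-62887412, minus strand: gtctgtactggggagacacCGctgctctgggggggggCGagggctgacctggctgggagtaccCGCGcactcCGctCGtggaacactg

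The 250 bases before this start of Uhrf1 held 30 CG pairs, and 5.94% of the 32851 RefSeq promoter windows of that length held as many or more. Dnmt3b held 21 CG pairs, a number reached by 16.3% of windows, and the full window of Tet1 held 15, reached by 27.3%. The median window held 6, and the window at the other start of Uhrf1 held 10. Uhrf1 and Dnmt1 are known to be transcribed at the start of DNA replication, a program run by E2F factors. E2F sites were therefore searched as TTTCGCGC, TTTGGCGC or TTTCCCGC on both strands, where matches on opposite strands can share bases. Of the 12 windows 2 held a form, against 1.53% of all windows. They were the Uhrf1 window above, with TTTCGCGC from base 66 of the window counted from its 5′ end, and 1 of the 3 windows of Dnmt1, with the same form on the other strand. That Dnmt1 window held 26 CG pairs, and 166 of its bases lie in annotated exons. TTTCGCGC itself holds 2 CG pairs, and the share over all windows was not matched for CG pairs. A match describes the letters only.

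Dnmt1, Uhrf1 and Mbd2 were the abundant transcripts of the family, and Dnmt3b and Tet1 the scarce ones. Counts were scaled to CPM, the usual count scale that sets every library to a common effective size, and, for comparing genes, divided by the length of the gene's merged exons. In WT Tregs, Dnmt1 stood at 124 ± 13.5 CPM per kb (SD, n = 5), Uhrf1 at 85.7 ± 12.2 and Mbd2 at 72.9 ± 10.1. Uhrf1 and Mbd2 were within their spread of each other. A lower tier held Mbd1 at 14.7 ± 0.981, Tet3 at 12.3 ± 0.951 and Dnmt3a at 11.3 ± 1.16 CPM per kb, where Tet3 and Dnmt3a were within their spread of each other. Tet2 followed at 6.17 ± 0.907, Dnmt3b at 2.66 ± 0.41 and Tet1 at 0.369 ± 0.0796 CPM per kb. In Ezh2-deficient Tregs (n = 4) the tiers were the same, with Mbd2 (79.3 ± 4.89) ahead of Uhrf1 (62.7 ± 8.81), and Dnmt3a (12.1 ± 0.991) ahead of Tet3 (10.5 ± 0.933). Merged exons include rare transcripts, up to 16870 bases for Tet2, so levels per length of genes with many transcripts can be understated. Differences this large between tiers compare genes, and the changes between genotypes below are far smaller.

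**Figure D1:**
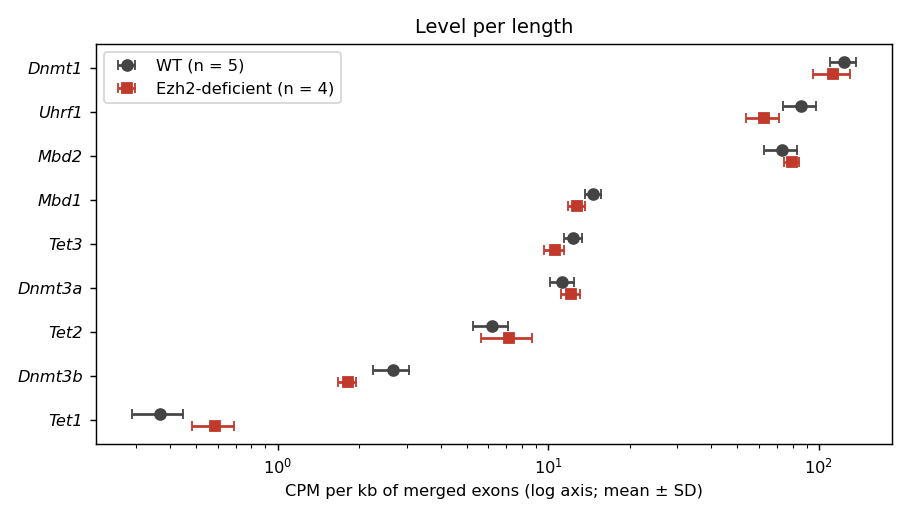
Mean level of each of the 9 genes in CPM per kb of merged exons (log axis) in WT (circles, n = 5) and Ezh2-deficient Tregs (squares, n = 4), with bars for the SD. Dnmt1 is highest at 124 CPM per kb in WT cells and Tet1 lowest at 0.369.

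Before the comparison, the libraries were checked. They held 32469450 to 62201921 counts. Ezh2 itself ranged from 153 to 167 CPM in Ezh2-deficient and from 234 to 360 CPM in WT libraries (log2 fold change -0.88, adjusted p = 0.000363 in edgeR's quasi-likelihood test). Counts span the whole gene, so transcripts that lack only the floxed exons are included. Treg markers were high throughout, 7 genes including Foxp3, Cd4 and Il2ra summing to 10511 to 11352 CPM without Ezh2 and to 9515 to 10328 CPM in WT. Il2ra had the largest part, with means of 6108 and 5649 CPM (log2 fold change 0.11, adjusted p = 0.361). Foxp3 was higher (0.30, adjusted p = 0.0313), and Cd4 had means of 413 and 470 CPM (-0.19, adjusted p = 0.0644). Libraries of both genotypes fell into 2 sets by hypoxia-response transcripts. The mean log2 CPM of 22 such genes was 6.08 to 6.44 in Ezh2-deficient replicates 1 and 4 and WT replicates 1, 2 and 4, and 4.85 to 4.96 in the other 4. Transcripts of CD8 T cells, Cd8a and Cd8b1, summed to 14.2 to 130 CPM without Ezh2 and to 16.2 to 147 CPM in WT, highest in replicate 4 of each group. The B cell gene Cd79a was lower in Ezh2-deficient libraries (means 0.885 and 2.33 CPM, a log2 difference of -1.38 with adjusted p = 0.00716). The 5 B cell markers tried summed to 12.6 to 17.6 against 16.9 to 19.7 CPM. Of 6 myeloid markers, summing to 19.6 to 27.5 against 11.2 to 18.6 CPM, Itgam made up most and was higher (0.80, adjusted p = 0.00817), Cd68 differed by 0.03 (adjusted p = 0.934), and Cd14 had 1 count in the Ezh2-deficient group against 42 in WT. Of 5 erythroid markers, summing to 5.41 to 19.4 against 2.17 to 7.74 CPM, Hba-a1 was higher (1.70, adjusted p = 0.0245). The 4 NK cell markers summed to 3.91 to 26.9 against 5.63 to 16.7 CPM, and Ncr1 had 0 counts. The part of these cells in the results below was not tested.

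With an adjusted p below 0.05, 1 of the 9 genes rose (Tet1) and 2 fell (Uhrf1 and Dnmt3b). Of all genes tested 21.9% passed, 13.1% higher and 8.8% lower, so a count of 3 in 9 is not far from the background. Adjusted p values are Benjamini-Hochberg values over all 13685 genes from edgeR's quasi-likelihood test, two-sided, and a positive log2 fold change means more without Ezh2. The samples of a group are called biological replicates by the series. The median log2 fold change of the 9 genes was -0.14, against 0.00262 over all genes tested. At an unadjusted p below 0.05, 5 of the 9 differed, adding Tet3 and Mbd1 to the 3, against 37.0% of all tested genes. In RNA from a whole culture, fewer cells that express a gene and less RNA per cell cannot be told apart.

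**Figure D2:**
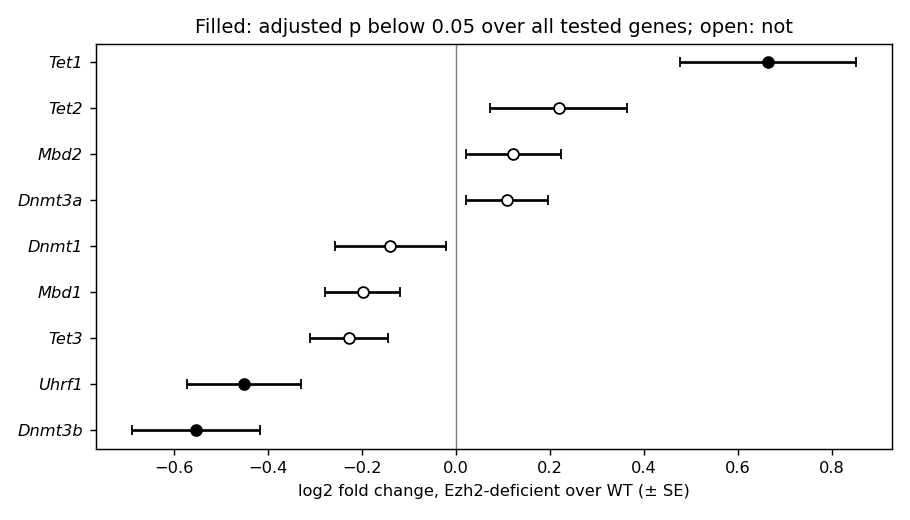
Log2 fold change of each gene, Ezh2-deficient over WT, with bars for the SE; filled points passed an adjusted p of 0.05 over all tested genes. Tet1 (0.66) lies at the upper end, Uhrf1 (-0.45) and Dnmt3b (-0.55) at the lower.

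Among the maintenance genes, Uhrf1 fell 1.37-fold and Dnmt1 did not pass the test. Uhrf1 (ENSMUSG00000001228, GRCm38 chromosome 17, 56303321 to 56323486, protein coding) stood at 267, 305, 280 and 216 CPM in Ezh2-deficient replicates 1 to 4. In WT libraries 1 to 5 it stood at 363, 351, 442, 297 and 371 CPM. Of the Ezh2-deficient libraries 3 lay below every WT library, and replicate 2 lay above WT replicate 4. The means were 267 ± 37.5 and 365 ± 51.8 CPM (SD, n = 4 and 5), a log2 fold change of -0.45 (SE 0.12, adjusted p = 0.0198, edgeR). These levels rest on 9297 to 21484 counts per library.

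Dnmt1, the methyltransferase that UHRF1 serves (ENSMUSG00000004099, chromosome 9, 20907209 to 20959888), was at 753, 961, 914 and 688 CPM in Ezh2-deficient replicates 1 to 4. In WT replicates 1 to 5 it was at 955, 939, 990, 738 and 946 CPM. The groups overlapped across most of their range, with low libraries in both. The means of 829 ± 130 and 914 ± 99.9 CPM gave a log2 fold change of -0.14 (SE 0.12, adjusted p = 0.415, edgeR). Dnmt1 passed in 0 of 22 alternative analyses, with an adjusted p of 0.162 to 0.766.

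The transcripts of DNA replication, with which Uhrf1 and Dnmt1 are known to be co-expressed, gave 0 rises and 3 falls among 30 genes, a median log2 fold change of -0.21. The 10% that passed compare with 21.9% of all genes, and the order depended on the analysis. With the hypoxia score as a covariate 11 passed (36.7%, against 28.0% of all genes), and without WT replicate 4 it was 8 (26.7%, against 18.1%). Ccne1, the gene of cyclin E1, fell, with means of 69.4 ± 6.47 and 101 ± 11 CPM in Ezh2-deficient and WT Tregs (log2 fold change -0.53, adjusted p = 0.00256). The histone chaperone gene Chaf1a fell by 0.34 on the log2 scale (adjusted p = 0.0137). Cdc6, which licenses replication origins, fell by 0.35 (adjusted p = 0.0398) but missed the threshold when WT replicate 1 or 2 or any one Ezh2-deficient library was left out (adjusted p = 0.0564 to 0.0744). Against the summed CPM of these 30 genes, Uhrf1 amounted to 4.83, 4.70, 4.51 and 4.27% in Ezh2-deficient replicates 1 to 4. In WT replicates 1 to 5 it amounted to 5.15, 5.18, 6.33, 5.41 and 5.09%, so that the groups did not overlap on this scale. How many of all genes separate on this scale was not computed, and in plain CPM 21.2% did. Whether Uhrf1 fell apart from the replication genes was not tested. Dnmt1 amounted to 14.2 ± 0.664% and 13.6 ± 0.456% of the same sum. Of 18 genes of mitosis, 0 rose and 1, the kinase gene Aurkb, fell (log2 fold change -0.35, adjusted p = 0.0195), with a median of 0.000714. This was 5.56% of the list, against 21.9% of all genes. The count was 4 without Ezh2-deficient replicate 2 (22.2%, against 21.7% of all genes). Mki67, a marker of cycling cells, was at 2691 ± 239 and 2671 ± 431 CPM (0.01, adjusted p = 0.963) and was named after its values were seen.

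Among the de novo methyltransferases, Dnmt3b fell 1.47-fold and Dnmt3a did not pass. Dnmt3b (ENSMUSG00000027478, chromosome 2, 153649450 to 153687730) was at 8.96, 9.82, 9.87 and 8.36 CPM in Ezh2-deficient replicates 1 to 4. In WT libraries 1 to 5 it was at 12.5, 11.1, 16.2, 15.2 and 12.8 CPM. Every Ezh2-deficient library lay below every WT library. Groups did not overlap, in either direction, for 21.2% of all tested genes. The means were 9.25 ± 0.729 and 13.6 ± 2.09 CPM (log2 fold change -0.55, SE 0.14, adjusted p = 0.014, edgeR), and 318 to 739 counts lie behind each library's value. Its close copy Dnmt3c had 3 counts in all 9 libraries together, and the regulatory paralogue Dnmt3l had 1.

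Dnmt3a (ENSMUSG00000020661, chromosome 12, 3806007 to 3914443) was at 192, 226, 201 and 190 CPM in Ezh2-deficient replicates 1 to 4. It was at 175, 184, 221, 183 and 174 CPM in WT replicates 1 to 5. The 4 Ezh2-deficient libraries all lay above the WT median, but WT replicate 3 exceeded 3 of them. The log2 fold change was 0.11 (SE 0.09, adjusted p = 0.396, edgeR), with 0 of 22 alternatives past the threshold (0.198 to 0.84). Counts are for the whole gene, so the long and short DNMT3A isoforms were not separated. By length, Dnmt3b made up 1.45 ± 0.104% of the 3 DNMT transcripts in Ezh2-deficient and 1.95 ± 0.419% in WT Tregs, and Dnmt3a 9.70 ± 0.866% and 8.23 ± 0.987%.

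**Figure D3:**
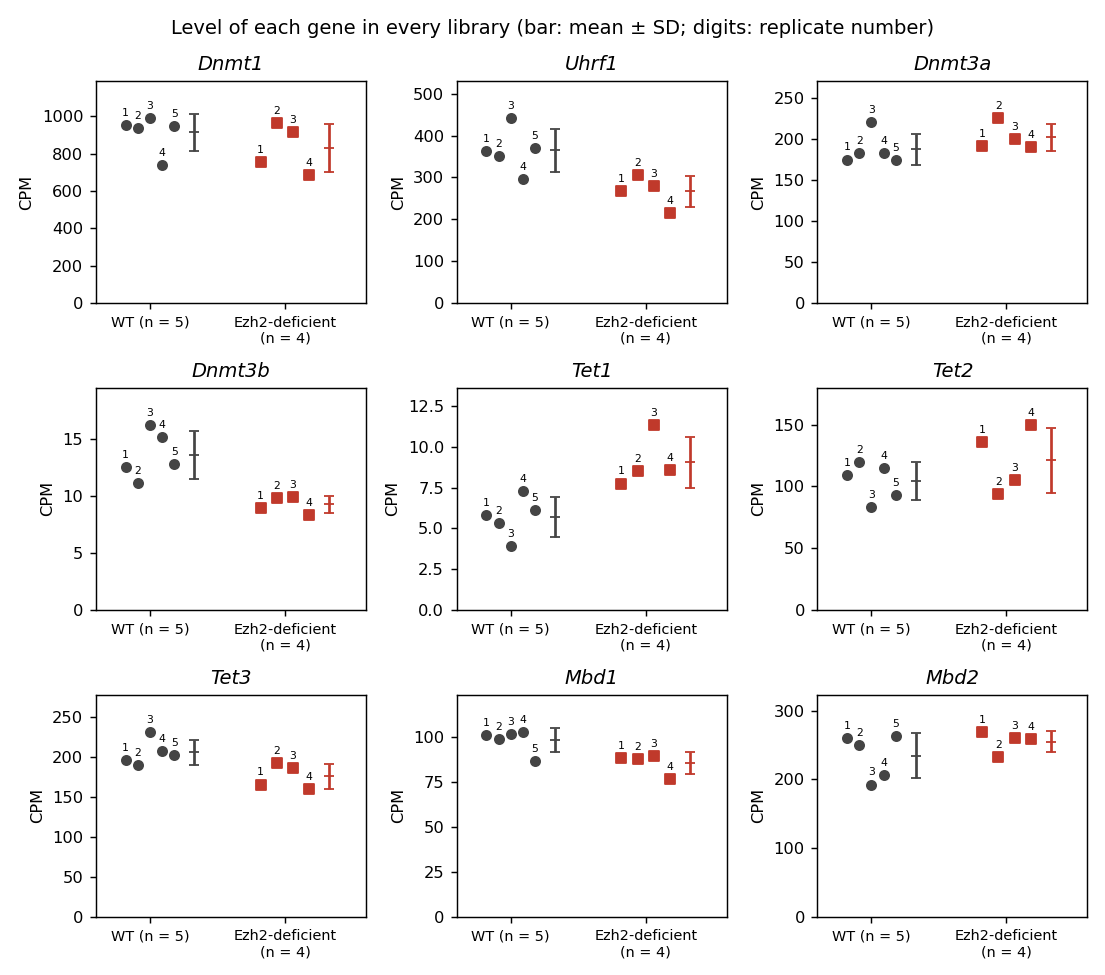
CPM of each of the 9 genes in every library, WT as circles and Ezh2-deficient as squares, labelled by replicate number, with the mean and SD beside them; every axis starts at 0. The groups do not overlap for Dnmt3b and Tet1, and overlap by 1 library on each side for Uhrf1.

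Of the 3 TET genes, the scarcest rose. Tet1 (ENSMUSG00000047146, chromosome 10, 62804570 to 62908996) was at 7.75, 8.49, 11.4 and 8.60 CPM in Ezh2-deficient replicates 1 to 4. In WT replicates 1 to 5 it was at 5.84, 5.31, 3.93, 7.30 and 6.13 CPM. Every Ezh2-deficient library lay above every WT library, by little between Ezh2-deficient replicate 1 and WT replicate 4. The means of 9.05 ± 1.58 and 5.70 ± 1.23 CPM gave a 1.58-fold higher level (log2 fold change 0.66, SE 0.19, adjusted p = 0.025, edgeR) from 137 to 529 counts per library. This call was lost without Ezh2-deficient replicate 3 (0.52, adjusted p = 0.102), WT replicate 2 (0.61, adjusted p = 0.0606) or WT replicate 3 (0.53, adjusted p = 0.0517).

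Tet2 and Tet3, the TET genes that Tregs express most, did not pass. Tet3 (ENSMUSG00000034832, chromosome 6, 83362373 to 83459084) was at 166, 192, 186 and 160 CPM in Ezh2-deficient replicates 1 to 4. It was at 197, 191, 232, 207 and 203 CPM in WT replicates 1 to 5. Of the Ezh2-deficient libraries 3 lay below every WT library and replicate 2 lay just above WT replicate 2. The log2 fold change was -0.23 (SE 0.08, adjusted p = 0.0658, edgeR), and 4 of 22 alternatives passed, among them DESeq2 (adjusted p = 0.0369). The other passes were the hypoxia score as a covariate (adjusted p = 0.0242) and the fits without Ezh2-deficient replicate 2 (0.0333) or WT replicate 2 (0.0474).

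Tet2 (ENSMUSG00000040943, chromosome 3, 133463679 to 133545139) was at 136, 93.6, 105 and 150 CPM in Ezh2-deficient replicates 1 to 4. It was at 110, 120, 83.7, 115 and 92.8 CPM in WT replicates 1 to 5. Within both genotypes the libraries with a high hypoxia score were the high ones. In Ezh2-deficient Tregs they were at 136 and 150 CPM against 93.6 and 105 in the low-score libraries, and in WT Tregs at 110 to 120 against 83.7 and 92.8. The difference between genotypes was 0.22 on the log2 scale (SE 0.15, adjusted p = 0.302, edgeR), and 0.21 (SE 0.07, adjusted p = 0.0516) with the score as a covariate. Tet3 ran the other way in Ezh2-deficient Tregs, at 160 and 166 CPM in the high-score against 186 and 192 CPM in the low-score libraries, while in WT Tregs the ranges of 191 to 207 and 203 to 232 CPM overlapped. By length, the summed level of the 3 TET genes was 18.3 ± 0.591 and 18.9 ± 0.594 CPM per kb in Ezh2-deficient and WT Tregs. Tet1 made up 3.20 ± 0.59% and 1.95 ± 0.409% of it, Tet2 39.0 ± 7.23% and 32.7 ± 4.55%, and Tet3 57.8 ± 6.9% and 65.4 ± 4.78%.

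**Figure D4:**
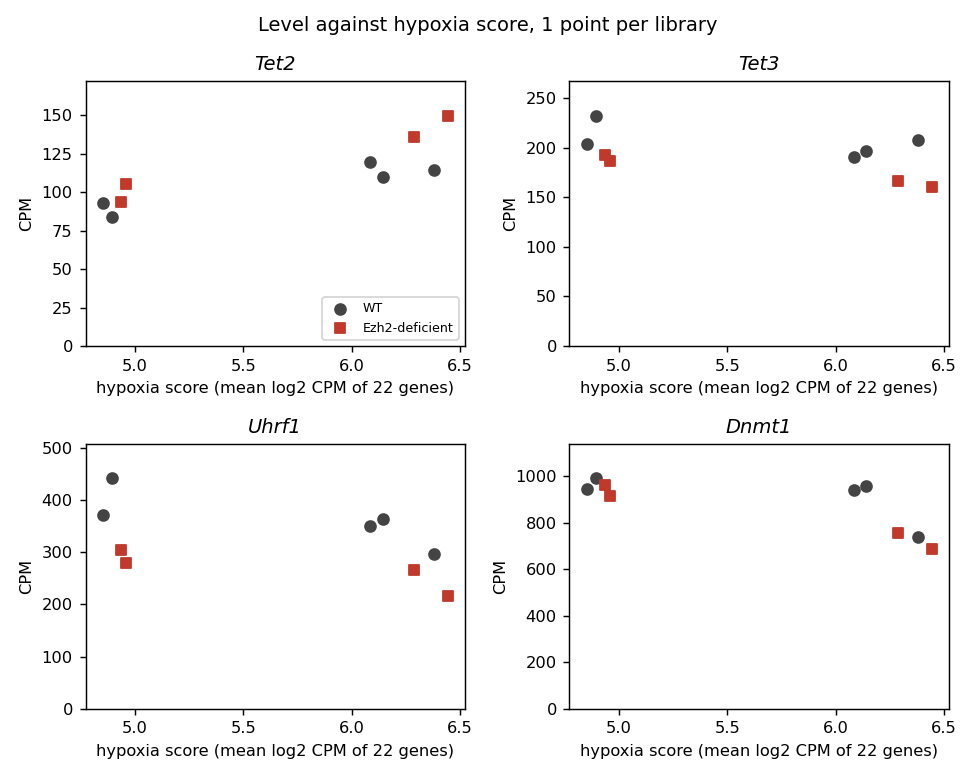
CPM of Tet2, Tet3, Uhrf1 and Dnmt1 in each library against its hypoxia score, the mean log2 CPM of 22 hypoxia-response genes (WT as circles, Ezh2-deficient as squares). The scores form 2 sets, and in each set the Uhrf1 level of the Ezh2-deficient libraries lies below that of the WT libraries.

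The directions of the 3 calls were the same within each set of hypoxia scores. For Dnmt3b and Tet1 this was fixed beforehand, since their groups did not overlap over the 9 libraries. Among the high-score libraries, 2 Ezh2-deficient against 3 WT, Uhrf1 was at 216 and 267 against 297 to 363 CPM (log2 fold change -0.49, adjusted p = 0.0355, edgeR). Among the low-score libraries, 2 against 2, it was at 280 and 305 against 371 and 442 CPM (-0.50, adjusted p = 0.0989). Dnmt3b differed by -0.59 in both sets (adjusted p = 0.0771 and 0.16), and Tet1 by 0.41 and 0.95 (adjusted p = 0.235 and 0.133). Of the 9 genes 1 passed in the high-score and 0 in the low-score set, where 12.6% and 4.13% of all genes passed. With the score as a covariate over all 9 libraries, Uhrf1, Dnmt3b and Tet1 had adjusted p = 0.00297, 0.00911 and 0.0218. Without the library with the most Cd8a of each group, replicate 4 in both, Dnmt3b differed by -0.46 (adjusted p = 0.0753).

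**Figure D5:**
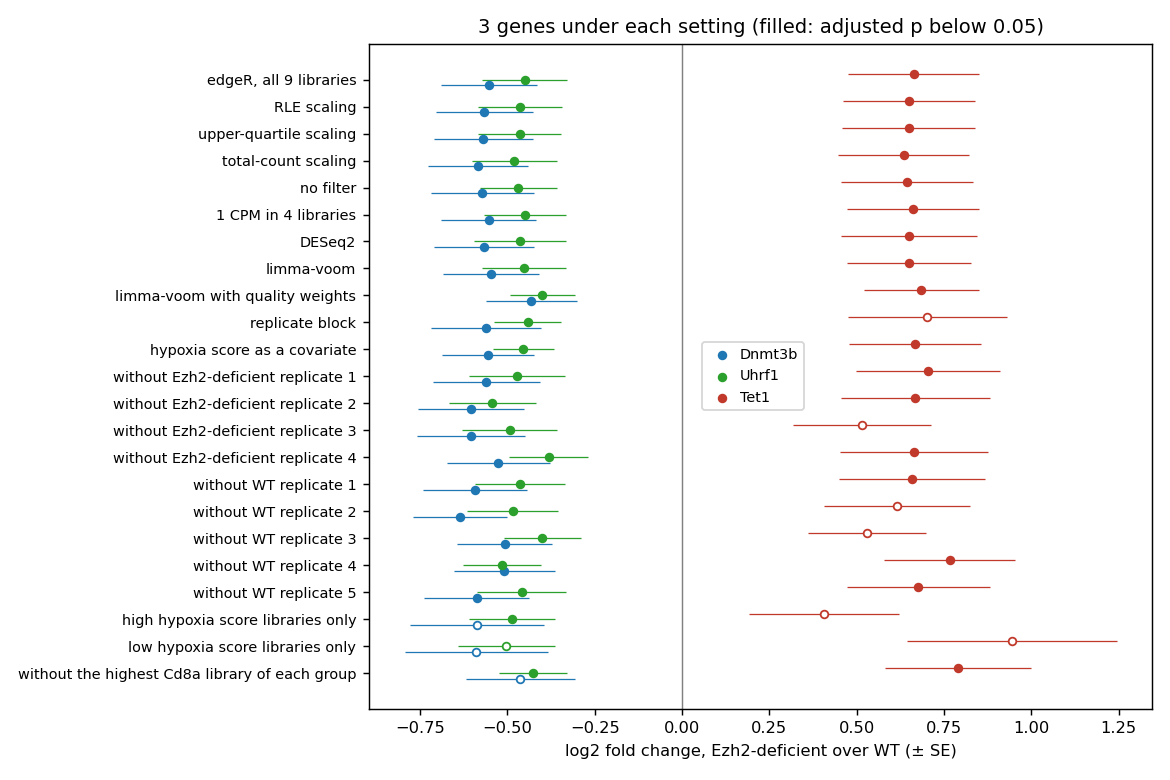
Log2 fold change of Dnmt3b, Uhrf1 and Tet1 with its SE in the main analysis (top) and in each of 22 alternatives; filled points have an adjusted p below 0.05. All points of a gene lie on the same side of 0, and Uhrf1 was past the threshold in 21 alternatives, Dnmt3b in 19 and Tet1 in 16.

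The methyl-CG readers Mbd1 and Mbd2, both on chromosome 18, did not pass. Mbd1 (ENSMUSG00000024561) was at 88.4, 87.9, 89.5 and 76.7 CPM in Ezh2-deficient replicates 1 to 4. It was at 101, 98.6, 102, 103 and 86.8 CPM in WT replicates 1 to 5. Only WT replicate 5 reached into the Ezh2-deficient range, and the log2 fold change was -0.20 (SE 0.08, adjusted p = 0.0899, edgeR). It passed in 2 of 22 alternatives, without WT replicate 5 (-0.25, adjusted p = 0.0287) and with DESeq2 (-0.21, adjusted p = 0.0494). Mbd2 (ENSMUSG00000024513), which recruits the NuRD remodelling complex, was at 269, 233, 260 and 258 CPM in Ezh2-deficient replicates 1 to 4. In WT replicates 1 to 5 it was at 260, 250, 192, 207 and 263 CPM. The groups overlapped (log2 fold change 0.12, SE 0.10, adjusted p = 0.408, edgeR), and WT replicates 3 and 4 were the lowest of the 9 libraries.

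Among other readers and partners of DNA methylation, Mbd5 and Zbtb4 were among those that rose, and Trim28 fell. Of 17 such genes 16 were tested, 4 rose and 1 fell, with a median log2 fold change of -0.05. This was 31.2% of those tested, against 21.9% of all genes, of which 13.1% were higher and 8.8% lower. Mbd5, whose protein carries a methyl-binding domain but is not known to bind methylated DNA, rose, with means of 59.1 ± 7.75 and 37.1 ± 4.15 CPM (log2 fold change 0.67, SE 0.11, adjusted p = 0.00145). The zinc-finger reader gene Zbtb4 rose, with means of 77.3 ± 7.17 and 52.6 ± 8.88 CPM (0.55, adjusted p = 0.00697). Zfp57, which protects methylation at imprinted genes, rose, with means of 0.54 ± 0.168 and 0.0545 ± 0.0682 CPM and with 96 against 12 counts (log2 fold change 3.23, adjusted p = 0.00765). It passed the filter on low counts only through the Ezh2-deficient libraries (0.395 to 0.776 CPM, against at most 0.143 in WT). Its place among the 4 rises therefore depends on the filter. With a filter of 1 CPM in 4 libraries Zfp57 was not tested, and 4 genes of the list passed, as did 24.5% of all genes. The fitted change of Zfp57 was 5.51 in the high-score set (adjusted p = 0.0109), where the 3 WT libraries held 1 count together and the value depends on the prior count, and 2.24 in the low-score set (adjusted p = 0.129). Trim28, the corepressor that works with ZFP57, fell, with means of 360 ± 35.1 and 445 ± 33.4 CPM (-0.31, adjusted p = 0.0263). It missed the threshold in the high-score set (adjusted p = 0.0534), in the low-score set (0.207) and without the highest Cd8a libraries (0.0564). Uhrf2, the paralogue of Uhrf1, was at 176 against 149 CPM (0.23, adjusted p = 0.125), and Hells, a remodeller needed for DNA methylation, at 146 against 155 CPM (-0.09, adjusted p = 0.59). Uhrf2 and Hells were named after their values were seen.

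Of 18 genes that act after or beside the TET enzymes in removing methylcytosine, 17 were tested, 1 rose and 2 fell, with a median of -0.03. This was 17.6% of those tested, against 21.9% of all genes. Apex1, which cuts DNA at the site left by a removed base, fell, with means of 30.2 ± 2.45 and 48.4 ± 7.44 CPM (log2 fold change -0.68, SE 0.12, adjusted p = 0.00181). Parp1, a sensor of strand breaks, fell, with means of 169 ± 19 and 234 ± 25.1 CPM (-0.47, adjusted p = 0.00564). Tdg, the glycosylase that removes oxidised methylcytosine, was at 10.4 ± 0.838 and 10.2 ± 0.869 CPM (0.03, adjusted p = 0.903) and was named after its values were seen. The stress-response gene Gadd45g rose, with means of 62.2 ± 15.7 and 31.3 ± 12.1 CPM (0.99, adjusted p = 0.0217). The groups overlapped, and the call was lost when any of 5 libraries, Ezh2-deficient 2 and 3 and WT 2, 3 and 4, was left out (0.81 to 0.96, adjusted p = 0.0534 to 0.0669) and was at 0.43 among the high-score libraries (adjusted p = 0.258).

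Of 14 genes of the folate and methionine cycles, which supply the methyl donor, 1 rose and 5 fell, with a median of -0.22. The 42.9% that passed compare with 21.9% of all genes, of which 13.1% were higher and 8.8% lower. Without Ezh2-deficient replicate 1, 3 passed (21.4%, against 15.5% of all genes). With the hypoxia score as a covariate, 8 passed (57.1%, against 28.0%). Shmt2, the mitochondrial serine hydroxymethyltransferase gene, fell, with means of 91.8 ± 11.8 and 165 ± 47.3 CPM (log2 fold change -0.84, SE 0.18, adjusted p = 0.00853), and missed the threshold without the highest Cd8a libraries (-0.73, adjusted p = 0.0676). Mtr, the gene of methionine synthase, fell, with means of 43.4 ± 3.91 and 56.4 ± 6.37 CPM (-0.38, adjusted p = 0.0183), and missed it in the high-score set (-0.36, adjusted p = 0.059). Shmt1 of the folate cycle fell by 0.37 and the mitochondrial folate gene Mthfd2 by 0.30 on the log2 scale (adjusted p = 0.0443 and 0.0234). Without Ezh2-deficient replicate 1 they had adjusted p = 0.0762 and 0.0544, and Shmt1 also missed when Ezh2-deficient library 4, WT library 3 or WT library 4 was left out (0.0829, 0.0673 and 0.0689). Ahcyl2, a relative of the enzyme that clears the spent donor, rose, with means of 680 ± 71 and 507 ± 71.3 CPM (0.42, adjusted p = 0.0183), and missed without Ezh2-deficient replicate 2 or 3 (adjusted p = 0.0512 and 0.0806).

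Transcripts of loci whose silence or activity is known to depend on DNA methylation were read beside these enzymes. Of 22 germline genes known to need promoter methylation to stay silent, 15 had 0 counts in all 9 libraries, and 2 were high enough to be tested, of which 0 passed. Brdt was at 2.79 ± 0.439 and 1.91 ± 0.46 CPM (log2 fold change 0.55, adjusted p = 0.107) and Piwil2 at 2.75 ± 1.03 and 2.75 ± 0.489 CPM. At an unadjusted p Brdt had 0.0358 and Piwil2 0.994. Tex11 was at 8.31 CPM in Ezh2-deficient replicate 4 and at most 0.66 CPM in every other library. Of 6 Treg loci known to lose methylation in this lineage, 1 rose and 1 fell, 33.3% against 21.9% of all genes. The Ikaros family gene Ikzf4 fell, with means of 223 ± 14.9 and 295 ± 27.3 CPM (log2 fold change -0.41, SE 0.08, adjusted p = 0.00539), and missed the threshold in the high-score and low-score sets (-0.37 and -0.50, adjusted p = 0.0615 and 0.0809). Foxp3 rose by 0.30 (adjusted p = 0.0313), a call that 6 of the 9 fits with 1 library left out did not keep (Ezh2-deficient replicates 1 to 3, WT replicates 2, 3 and 5, 0.23 to 0.32, adjusted p = 0.0503 to 0.126). Among the high-score libraries it differed by 0.12 (adjusted p = 0.461). Il2ra, Ctla4, Ikzf2 and Tnfrsf18 differed by 0.11, 0.17, 0.12 and 0.05 (adjusted p = 0.361 to 0.782), and the direction changed for the last 3 of these in some alternatives. In the low-score set, where 4.13% of all genes passed, Zbtb4, Apex1 and Gadd45g were, of the list genes described above as having risen or fallen, those that passed again. Methylation itself was not measured.

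The genes with the most similar pattern over the 9 libraries were found by Pearson's r of log2 CPM among 8665 protein-coding genes with a mean of at least 10 CPM. The points are libraries of both genotypes, and each library's depth and culture act on all its genes, so these values are descriptions. Closest to Uhrf1 were Hcfc1 (r = 0.987), Trim28 (0.984) and Prpf19 (0.977). Dnmt1 was closest to the cell cycle transcription factor genes Mybl2 (0.983) and E2f8 (0.974) and to Naa40 (0.978). Dnmt3b was closest to Hspe1 (0.982), Ywhag (0.980) and Tbxa2r (0.980), and Tet1 to Cln6 (0.976), Tnfrsf1a (0.972) and Acss1 (0.97). For Tet3 Alg3 reached 0.995, for Tet2 Ppp2r3a 0.982, for Dnmt3a Pigv 0.988, for Mbd1 Ddx23 0.961 and for Mbd2 Lrch3 0.969.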

How the data were processed

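The deposited values are counts of each gene in 9 libraries, whole numbers without normalization. Per the labels' protocols, libraries were made with a stranded mRNA kit. Per the submitters' processing notes, STAR and GRCm38 were used, and the counting tool, strand setting and annotation release are not given in the labels used here. Symbols, positions and merged exon lengths came from GENCODE M21 (GRCm38), which held 42548 of the 43432 identifiers. Dnmt3a shares 133 exon bases with its antisense gene Dnmt3aos (14 counts in the 9 libraries). Tet2 shares 43 with the antisense gene Gm42567, which is not in the count table. Without the strand setting, how reads on those bases were assigned is not known.

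Genes passing edgeR's default filter were tested, after TMM scaling, with the robust quasi-likelihood F-test (edgeR 4.0.16, R 4.3.3), group only. The SE is the log2 fold change over the root of F. The test was tried on simulated data with known changes. Depth was 32469450 to 62201921 counts per library. Intervals were not computed, since replicates give the error. No library was a duplicate of another (lowest chi-square per degree of freedom within a group 21.9). The 22 alternatives were other scalings, filters, DESeq2 1.42.0, limma-voom (limma 3.58.1) in its plain and its quality-weighted form, a replicate block, the hypoxia score as a covariate, each library left out, either hypoxia set, and the highest Cd8a libraries left out.

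The members and gene lists were chosen with earlier results of these data known. Named genes were the 9 members, up to 6 genes per list with the smallest p, the highest germline genes, and 3 most similar genes per member. Some list genes enter the counts and are not reported here by name.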

Additional observations from a re-analysis of the deposited data

Results flagged for a closer look

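In 4 of the 18 sets of values (9 genes in 2 groups) the highest or lowest library stood apart from the rest by Dixon's gap test, where chance gives about 1 in 20. Dnmt1 was at 738 CPM in WT replicate 4, against 939 to 990 CPM in the other WT libraries. Dnmt3a was at 221 CPM in WT replicate 3, against 174 to 184 CPM. Mbd1 was at 76.7 CPM in Ezh2-deficient replicate 4, against 87.9 to 89.5 CPM, and at 86.8 CPM in WT replicate 5, against 98.6 to 103 CPM.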

How the results depend on the processing

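Of the 9 genes, 3 passed, with 2 to 4 when 1 library was left out, 5 with DESeq2 (which called 3960 of all genes, 28.9%), and 1 and 0 within the high and low hypoxia score libraries. Over the 22 alternatives the log2 fold change was -0.54 to -0.38 for Uhrf1, -0.64 to -0.43 for Dnmt3b and 0.41 to 0.95 for Tet1, and 0 changes of direction occurred among the 9 genes. For Dnmt3b and Tet1, whose groups did not overlap, the fits on fewer libraries could not show such a change. Replication genes passed for 7 with total-count scaling, DESeq2 and voom with quality weights each, 11 with the hypoxia covariate and 2 to 8 with a library left out, against 3. Mitosis genes passed for 4 with that covariate and 1 to 4 with a library left out, against 1. Methyl-donor genes passed for 8 with that covariate, 7 with DESeq2 and 3 to 6 with a library left out, against 6. Of all genes 28.0% passed with that covariate and 28.9% with DESeq2. Treg loci passed for 1 without a filter, 1 with the replicate block and 1 to 2 with a library left out, against 2. Replicate numbers are shared by the groups, but deviations of same-numbered libraries correlated at -0.08 to 0.19 over 4 pairs, and 0 of 4 Ezh2-deficient libraries correlated best with its own number, so the numbers were not taken as pairs. With the replicate block Tet1 missed the threshold (log2 fold change 0.70, adjusted p = 0.0554), as did Cdc6 (-0.27, adjusted p = 0.0701) and Foxp3 (0.25, adjusted p = 0.103), and 2751 of all genes passed, against 3001 without it. Of all genes 1764 passed in the high-score set, 570 in the low-score set and 1972 without Ezh2-deficient replicate 3. With 1 library left out, genes that did not pass and changed direction ranged from -0.24 to 0.16 (Piwil2, -0.0020 with all libraries), -0.073 to 0.12 (Tnfrsf18, 0.05) and -0.0030 to 0.19 (Ikzf2, 0.12). In the high-score set Piwil2 was at 0.26 and Tnfrsf18 at -0.12, and in the low-score set Ikzf2 was at -0.16 and Ctla4 at -0.031. Where a call changed, the cause was not tested. Among the 9 genes depth limits Tet1 and Dnmt3b most, at 137 and 318 counts in their lowest libraries.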
